A study of Mus musculus with 12 samples.

Results

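The levels of 9 transcription factor genes, Nkx2-1, Lhx6, Lhx8, Sox6, Maf, Nr2f1, Nr2f2, Prox1 and Sp8, were followed across the nuclei of the E14 mouse cortex after prenatal alcohol exposure (PAE). They were chosen by name as factors of the medial and caudal ganglionic eminences, with earlier results of these data known. All 9 were found among the 23513 genes of the count tables. Nuclei came from C57BL/6J embryos of dams that had received saline or 2.5 g/kg EtOH intraperitoneally on 6 days, from E8.5 on. The saline group held 5 embryos, S1-1 and S1-2 from dam S1 and S2-1, S2-2 and S2-4 from dam S2. The EtOH group held 6 embryos, E1-1 and E1-2 from dam E1 and E2-1 to E2-4 from dam E2. The saline embryo S2-3 was not analysed here. The codes S1, S2, E1 and E2 in the labels were read as dams, since the paper used 2 dams per condition. EtOH was thus given to 2 dams, so littermates share their treatment, and dams S1 and E1 formed batch 1 while dams S2 and E2 formed batch 2. The authors had sorted the 50550 nuclei into 25 clusters, which they named as radial glia (RGCs), intermediate progenitors (IPCs), PN, meaning projection neurons, interneurons (Int) and others.

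The ganglionic eminences are the parts of the ventral forebrain in which cortical interneurons are born before they migrate tangentially into the cortex. In the medial eminence NKX2-1 switches on LHX6 and LHX8, and cells that go on to the cortex shut off Nkx2-1 while they keep LHX6, which in turn is needed for SOX6 and MAF in the somatostatin and parvalbumin lineages. In the caudal eminence the COUP transcription factors NR2F1 and NR2F2, the homeodomain factor PROX1 and the zinc finger factor SP8 mark cells that give rise to vasoactive intestinal peptide, reelin and other interneurons. Several of these factors also act in cortical progenitors: SOX6 is made by RGCs of the dorsal cortex, and NR2F1 and NR2F2 form gradients that pattern cortical areas.

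Promoters are shown for the 3 members at the start of the medial sequence, Nkx2-1, Lhx6 and Lhx8, whose levels followed each other over the clusters. Each run gives the bases before the start of the gene on GRCm38, 5′ to 3′ on the gene's own strand, from RefSeq on GRCm38.p6. The Nkx2-1 window was chr12:56536909-56537158 and the Lhx6 window chr2:36105409-36105658, 250 bases each. The Lhx8 window, chr3:154330660-154330810, was shortened to the 151 bases before the start given by GENCODE, which lies 99 bases further out than that of RefSeq. All 3 genes lie on the minus strand.
Nkx2-1: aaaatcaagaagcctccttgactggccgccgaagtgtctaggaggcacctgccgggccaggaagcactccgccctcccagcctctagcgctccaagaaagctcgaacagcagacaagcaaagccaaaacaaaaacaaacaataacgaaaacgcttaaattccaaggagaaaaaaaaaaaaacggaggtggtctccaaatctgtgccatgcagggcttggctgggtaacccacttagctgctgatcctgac
Lhx6: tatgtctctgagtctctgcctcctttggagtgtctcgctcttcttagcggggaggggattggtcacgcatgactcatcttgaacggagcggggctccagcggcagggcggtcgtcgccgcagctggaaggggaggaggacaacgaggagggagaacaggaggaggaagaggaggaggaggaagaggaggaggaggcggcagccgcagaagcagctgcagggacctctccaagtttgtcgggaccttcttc
Lhx8: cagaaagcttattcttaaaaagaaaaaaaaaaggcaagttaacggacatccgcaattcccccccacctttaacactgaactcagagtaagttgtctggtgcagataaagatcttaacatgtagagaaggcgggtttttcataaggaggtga
The letters CAAGTG, a form of the site that NKX2-1 binds, were searched on both strands, and a match would be in capitals. These letters were in 0 of the 3 windows. In the 250 bases before every listed start they were found in 3 of 19 windows of the 8 members with an entry (1 window each of Sox6, Prox1 and Sp8), and in 11.6% of all 32851 windows. Maf has no entry.

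The genes themselves lie at chr12:56531958-56536908 (Nkx2-1), chr2:36081953-36105408 (Lhx6), chr3:154306294-154330659 (Lhx8), chr7:115470872-116038796 (Sox6), chr8:115682942-115707794 (Maf), chr13:78188973-78199757 (Nr2f1), chr7:70351944-70366735 (Nr2f2), chr1:190118035-190170714 (Prox1) and chr12:118846329-118852576 (Sp8, the only member on the plus strand). Genes on the other strand overlapped 6 members, namely Gm26973 at Nkx2-1, Gm45025 and Sox6os at Sox6, Gm15655 at Maf, A830082K12Rik at Nr2f1, B130024G19Rik at Nr2f2, and Gm28172 and Prox1os at Prox1. The authors ran Cell Ranger with its default parameters and did not name the strand setting separately. How reads in these overlaps were assigned was not examined here. The overlaps covered 1566 bases of Nkx2-1, 1741 of Nr2f1 and 419 of Prox1 at their 5′ ends, and 18872 bases within Sox6 for Gm45025.

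Embryos had 2346 to 7639 nuclei, and the median UMI count per nucleus was 6325 to 9051 in the saline and 4072 to 6911 in the EtOH embryos. Shares of nuclei with a UMI were therefore taken after every nucleus was thinned to 2000 UMIs, which left out 177 saline and 210 EtOH nuclei. Barcodes found in more than 1 library numbered 314. The interneuron markers Gad1, Gad2 and Slc32a1 together stood at 1645 CPM in Cluster 5 (Migrating Int) and 1954 CPM in Cluster 23 (Migrating Int), against 45.4 CPM in Cluster 1 (Callosal PN), as the names say. The embryo E1-1 stood apart as the lowest in Nr2f2, S2-1 as the highest in Nkx2-1 (17 of 25 clusters) and Lhx8 (16 of 25), and S2-4 as the lowest saline embryo for Sox6 in PN clusters, and results that rest on them are given with and without them.

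The clusters were made from these same nuclei, members included, so differences in level between clusters are given without a test, as the mean over embryos ± SD in CPM (counts scaled to a fixed library total). Each level rests on an embryo's summed counts in a cluster with at least 10 nuclei. A cluster was taken to differ from the next lower one when the means differed by more than the larger of the SDs.

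**Figure D1:**
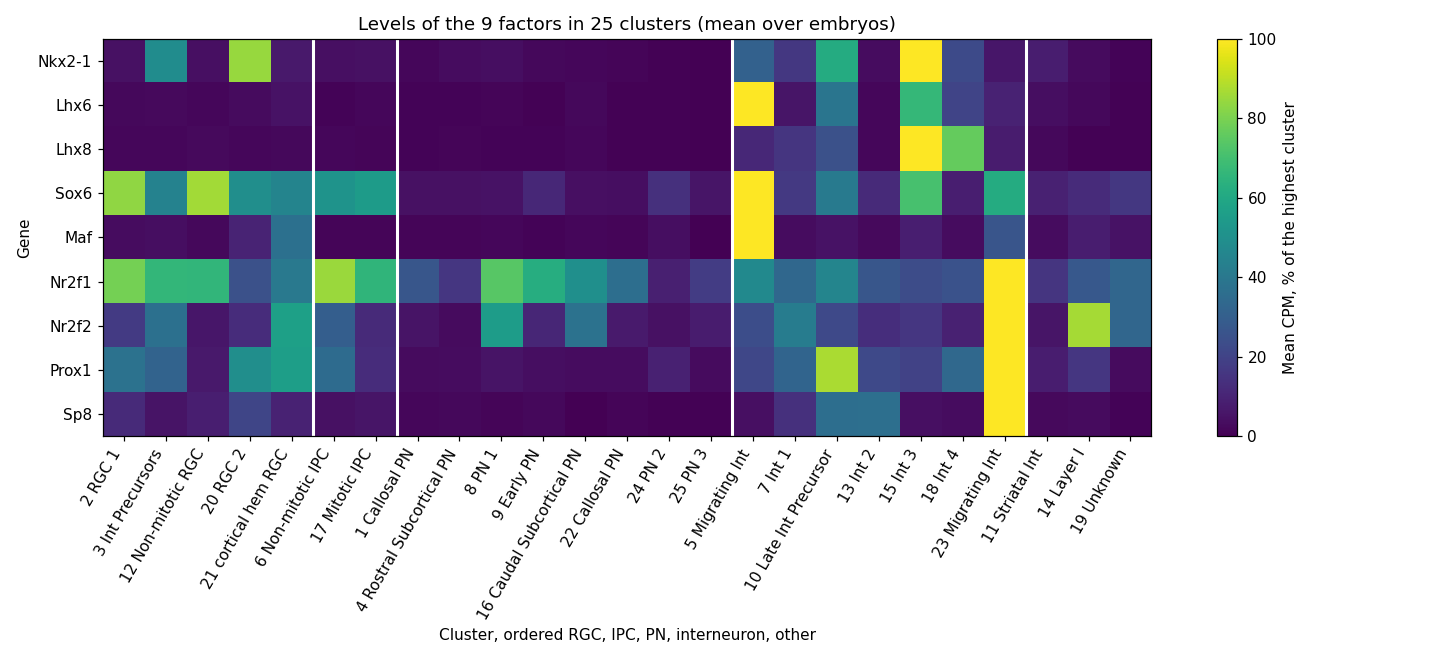
Mean CPM over embryos of each member (rows) in each of the 25 clusters (columns, ordered RGC, IPC, PN, interneuron and other, parted by white lines), as a percentage of that member's highest cluster. Nkx2-1 and Lhx8 peaked in Cluster 15, Lhx6, Sox6 and Maf in Cluster 5, and Nr2f1, Nr2f2, Prox1 and Sp8 in Cluster 23.

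Nkx2-1, the factor that specifies the medial eminence, was highest in Cluster 15 (Int 3) at 56.0 ± 23.6 CPM (SD, n = 11 embryos), with single embryos from 20.7 to 94.6 CPM. Cluster 20 (RGC 2) followed with 47.2 ± 44.2 CPM (n = 9), Cluster 10 (Late Int Precursor) with 34.3 ± 22.3 CPM and Cluster 3 (Int Precursors) with 27.2 ± 17.2 CPM. Cluster 15 was above Cluster 20 in 6 of 9 embryos, and none of the neighbours in this order differed beyond their spread. The clusters that led were thus of the RGC and interneuron classes, and the level was 17.3 ± 8.3 CPM in the migrating interneurons of Cluster 5. In the 8 PN clusters the means lay between 0 and 2.10 CPM. With nuclei thinned to 2000 UMIs, 9.70 ± 3.93% of Cluster 15 nuclei had an Nkx2-1 UMI, against 0.233% in Cluster 1, a PN cluster that should lack the gene. The median depths of these clusters were 9146 and 6608 UMIs.

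Lhx6, which is needed for the migration and fate of medial eminence interneurons, was highest in Cluster 5 at 285 ± 21.5 CPM (SD, n = 11), with embryos between 251 and 319 CPM. Cluster 15 had 190 ± 57.8 CPM, Cluster 10 had 111 ± 43.9 CPM and Cluster 18 (Int 4) had 58.3 ± 19.7 CPM. Here each step was larger than the spread, and Cluster 5 was above Cluster 15 in 10 of 11 embryos, Cluster 15 above Cluster 10 in 9 of 11 and Cluster 10 above Cluster 18 in 8 of 11. Below Cluster 18 the mean was 27.6 ± 24.9 CPM in Cluster 23, and the 8 PN clusters lay between 1.07 and 5.93 CPM. Lhx6 UMIs were found in 44.3 ± 2.32% of thinned nuclei of Cluster 5 and in 0.524% of those of Cluster 1.

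Lhx8, which in the medial eminence acts with Lhx6 and is known for cholinergic neurons of the basal forebrain, had its highest level in Cluster 15 at 171 ± 43.3 CPM (SD, n = 11) and its next highest in Cluster 18 at 130 ± 46.1 CPM. These neighbours did not differ beyond their spread, although Cluster 15 was the higher in 9 of 11 embryos. Cluster 18 exceeded Cluster 10, at 42.4 ± 20.8 CPM, in 11 of 11 embryos. In the migrating interneurons of Cluster 5, where Lhx6 peaked, Lhx8 was at 19.2 ± 9.4 CPM. A UMI of Lhx8 was found in 24.7 ± 7.85% of thinned nuclei of Cluster 15 and in 0.190% of those of Cluster 1.

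Sox6, an SRY-related factor that places medial eminence interneurons in their layers, was present in RGCs and IPCs as well as in interneurons. Its highest level was in Cluster 5 at 3487 ± 355 CPM (SD, n = 11), followed by the non-mitotic RGCs of Cluster 12 at 3007 ± 246 CPM, Cluster 2 (RGC 1) at 2913 ± 181 CPM, Cluster 15 at 2469 ± 415 CPM and Cluster 23 at 2145 ± 736 CPM. Clusters 12 and 2 did not differ beyond their spread, while Cluster 5 was above Cluster 12 in 10 of 11 embryos. The IPC clusters stood at 1911 ± 173 CPM (Cluster 17) and 1791 ± 151 CPM (Cluster 6). Cluster means in the 8 PN clusters were 128 to 484 CPM. Almost every thinned RGC nucleus of Cluster 2 had a Sox6 UMI (98.7 ± 0.654%), against 20.5 ± 14.0% in Cluster 1. Ranked by share, Cluster 12 and not Cluster 5 came first.

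Maf, a leucine zipper factor of the medial eminence lineage, was concentrated in Cluster 5 at 279 ± 36.0 CPM (SD, n = 11), with embryos from 219 to 337 CPM. The next clusters were the cortical hem RGCs of Cluster 21 at 103 ± 44.9 CPM (n = 10) and Cluster 23 at 74.0 ± 42.4 CPM. Cluster 5 exceeded Cluster 21 in 10 of 10 embryos. In Cluster 15, where Lhx6 and Lhx8 were high, Maf was at 23.1 ± 6.9 CPM. Maf UMIs were found in 40.1 ± 4.39% of thinned nuclei of Cluster 5 and in 0.774% of those of Cluster 1.

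Nr2f1, known as COUP-TFI, was spread most evenly over the cell types, with cluster means from 38.0 to 438 CPM. Its highest level was in Cluster 23 at 438 ± 50.3 CPM (SD, n = 10), followed by Cluster 6 (Non-mitotic IPC) at 372 ± 57.2 CPM, Cluster 2 at 346 ± 57.7 CPM and Cluster 8 (PN 1) at 325 ± 35.6 CPM. Cluster 23 differed from Cluster 6 beyond the spread and was higher in 8 of 10 embryos, whereas Clusters 6, 2 and 8 did not differ from their neighbours. The other interneuron clusters reached down to 101 CPM.

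Nr2f2, known as COUP-TFII and a marker of caudal eminence cells, had its highest level in Cluster 23 at 362 ± 104 CPM (SD, n = 10) and its next in Cluster 14 (Layer I) at 314 ± 22.4 CPM (n = 11), which did not differ beyond their spread. Cluster 21 at 206 ± 69.3 CPM, Cluster 8 at 200.1 ± 62.3 CPM and Cluster 7 (Int 1) at 152 ± 64.7 CPM followed. UMIs of Nr2f2 were found in 47.2 ± 9.76% of thinned nuclei of Cluster 23 and in 3.26 ± 1.37% of those of Cluster 1.

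Prox1, which caudal eminence interneurons need for their migration and maturation, was highest in Cluster 23 at 173 ± 87.0 CPM (SD, n = 10) and Cluster 10 at 151 ± 41.5 CPM (n = 11), a pair that did not differ beyond the spread and whose order turned when ranked by share (21.3 ± 6.87% and 21.5 ± 4.37% of thinned nuclei). The level in Cluster 10 exceeded that in Cluster 21, 97.0 ± 26.8 CPM, in 9 of 10 embryos. In PN clusters the means were 5.06 to 16.1 CPM. Sp8, a factor of the lateral and caudal eminences, stood at 64.0 ± 24.4 CPM in Cluster 23 (n = 10), above Cluster 13 (Int 2) at 23.3 ± 6.6 CPM in 10 of 10 embryos. Clusters 13 and 10, the latter at 23 ± 6.6 CPM, did not differ. Sp8 had 2155 UMIs in all nuclei together, the fewest of the 9 members, and Sox6 had 538863.

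Genes with the most similar pattern over the 25 cluster means were read by Pearson's r of log2(CPM + 1) among 11621 genes. The measure describes shared cell types, and all clusters come from the same libraries. For Nkx2-1 these were Gm26973 (r = 0.943), Mbip (0.884) and Dlx1 (0.792), and for Lhx6 Lhx8 (0.881), Dlx6os1 (0.851) and Dlx5 (0.836). For Lhx8 they were Gm14114 (0.930), Slc10a4 (0.930) and Lhx6 (0.881), and for Sox6 Gm45025 (0.992), 1110004F10Rik (0.902) and Vegfc (0.867). Maf was followed by 4930488N15Rik (0.916), Erbb4 (0.862) and Arl4c (0.804), and Nr2f1 by A830082K12Rik (0.920), Etfdh (0.870) and 3110006O06Rik (0.849). Nr2f2 was followed by Gm28258 (0.980), Gm35842 (0.948) and Gm44532 (0.937), Prox1 by Prox1os (0.953), Nudt4 (0.839) and Crb1 (0.827), and Sp8 by Prox1os (0.862), Sox2 (0.825) and Gm20515 (0.810). The gene most like the member was an overlapping gene on the other strand for Nkx2-1, Sox6, Nr2f1 and Prox1. Between members r was highest for Lhx6 and Lhx8 (0.88), Prox1 and Sp8 (0.81) and Lhx6 and Nkx2-1 (0.78), and lowest for Lhx8 and Nr2f1 (0.02).

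In the nuclei of the 7 interneuron clusters, the members fell into sets that were found together. Among nuclei with an Lhx8 UMI, 43.1 ± 8.94% also had Lhx6, against 18.5 ± 3.28% of nuclei without Lhx8 (SD, n = 11 embryos, thinned), and the share was higher in 11 of 11 embryos. Nkx2-1 was in 17.2 ± 3.95% of nuclei with Lhx8 and in 2.61 ± 1.47% of those without, again higher in 11 of 11. Nuclei with Maf had Lhx6 in 40.3 ± 3.45% and Sox6 in 91.5 ± 4.64%, against 16.7 ± 3.12% and 54.6 ± 8.87% of nuclei without Maf. By contrast, Maf was found in 3.60 ± 2.31% of nuclei with Lhx8 and in 14.6 ± 3.92% of those without, lower in 11 of 11 embryos. Lhx6 was thus found with Lhx8 and with Maf, while Maf was less frequent in nuclei with Lhx8 than in those without it.

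Among the caudal factors, Nr2f1 was in 44.997 ± 5.48% of nuclei with Nr2f2 and in 20.1 ± 4.32% of those without (n = 11), and Prox1 was in 18.6 ± 3.10% against 7.05 ± 1.83%. Each was higher in 11 of 11 embryos. Across the sets the order turned for several pairs, but not for all. Prox1 was in 13.8 ± 6.03% of nuclei with Nkx2-1 and in 8.72 ± 2.12% of those without, higher in 7 of 9 embryos. Nr2f2 was in 7.99 ± 3.45% of nuclei with Lhx6 and in 14.8 ± 4.34% of those without, lower in 11 of 11 embryos. Sp8 was in 0.148 ± 0.293% of nuclei with Lhx6 and in 2.76 ± 0.756% of those without. Sox6 joined part of the medial set, with Lhx6 in 29.6 ± 3.64% of nuclei with Sox6 and 5.93 ± 1.53% of those without. Lhx8 was not linked with it, at 6.30 ± 2.06% with Sox6 and 6.07 ± 2.20% without, higher in 5 and lower in 6 embryos. Nor did Sox6 keep to the medial set, since Nr2f1 too was more frequent with Sox6 than without it (25.7 ± 4.71% against 19.7 ± 5.68%, in 11 of 11 embryos). Doublets were not called, so a nucleus with a pair of factors may also be a pair of nuclei.

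**Figure D2:**
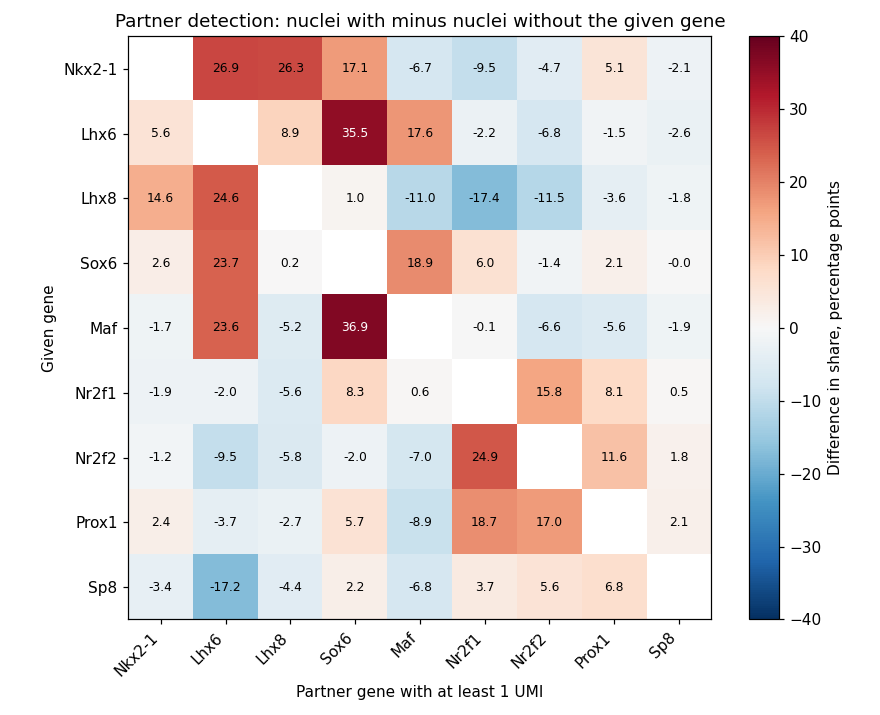
Share of interneuron nuclei with a UMI of the partner gene (columns) in nuclei with a UMI of the given gene (rows) minus that in nuclei without it, in percentage points, mean over embryos with at least 20 positive nuclei, nuclei thinned to 2000 UMIs. Red squares link Nkx2-1, Lhx6 and Lhx8, link Lhx6, Sox6 and Maf, and link Nr2f1, Nr2f2 and Prox1, while blue squares part Lhx8 from Maf, Nr2f1 and Nr2f2.

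Several of these links were seen within single clusters. In the late precursors of Cluster 10, 62.6 ± 21.3% of nuclei with Nkx2-1 had Lhx6, against 13.2 ± 2.55% of those without (n = 6 embryos with at least 10 positive nuclei), and Lhx8 was in 29.4 ± 8.90% of nuclei with Lhx6 and in 2.31 ± 2.13% of those without (n = 8). Nr2f1 was in 54.9 ± 11.5% of Cluster 10 nuclei with Nr2f2 and in 20.3 ± 4.27% of those without, higher in 9 of 9 embryos. In Cluster 23, where both peaked, these shares were 53.98 ± 12.6% and 51.2 ± 21.7%, higher in 4 and lower in 5 embryos. Nr2f2 was in 10.5 ± 2.82% of Cluster 10 nuclei with Lhx6 and in 11.9 ± 3.01% of those without, lower in 5 of 8 embryos. In Cluster 5 the latter shares were 8.09 ± 4.69% and 13.4 ± 4.46%, lower in 9 of 11. Prox1 was in 31.3 ± 7.95% of Cluster 10 nuclei with Lhx6 and in 21.1 ± 4.96% of those without, higher in 6 of 8 embryos. In the migrating interneurons of Cluster 5, Lhx6 and Maf were not linked, with Maf in 39.8 ± 4.86% of nuclei with Lhx6 and in 40.5 ± 5.30% of those without (n = 11), while in Cluster 10 Maf was in 4.78 ± 3.74% against 1.90 ± 0.952%, higher in 6 of 8 embryos. Maf was in 23.1 ± 5.65% of Cluster 5 nuclei with Nr2f2 against 41.2 ± 4.05% without, lower in 9 of 9 embryos.

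Saline and EtOH were then compared in every cluster by edgeR's quasi-likelihood test on counts summed per embryo. A gene was called at a Benjamini-Hochberg adjusted p under 0.05 and a fold of EtOH over saline under 0.8 or above the inverse of 0.8, the thresholds of the study. The members gave 132 gene-by-cluster tests that passed the filter on low counts, and 4 of these were called, 4 of 4 lower after EtOH, with 25 at an unadjusted p under 0.05. Over all genes and clusters, 0.792% of tests were called. The median log2 fold change of the members was -0.21, against 0.01 over all tests, and 105 of the 132 were below 0, against 106513 of all 217253. The 132 tests repeat 9 genes over clusters of the same embryos and are not independent. The 4 calls were of Nkx2-1 in Cluster 3 and of Sox6 in Clusters 1, 4 and 9, where 1.85% (Cluster 3), 3.26% (Cluster 1), 0.719% (Cluster 4) and 1.27% (Cluster 9) of all tested genes were called. Lhx6, Lhx8, Maf, Nr2f1, Nr2f2, Prox1 and Sp8 were called in 0 clusters by edgeR, with 0, 0, 5, 2, 3, 2 and 1 tests at an unadjusted p under 0.05. DESeq2 called 10 of the member tests, among them Maf and Prox1 in Cluster 1. Shares of all tests called are given here only for edgeR with its filter on low counts and all embryos. Counts of member calls under other settings thus have no such share beside them. The share of all genes whose groups do not overlap is not given either, so statements on overlap below have no background. In sums over nuclei, fewer nuclei of a type and less RNA per nucleus cannot be told apart. As embryos of a litter are not independent, p-values measure the spread between embryos and not between dams.

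Nkx2-1 fell in the interneuron precursors of Cluster 3, a cluster of the RGC class. Its level there was 40.3, 50.9, 62.6, 24.7 and 27.1 CPM in S1-1, S1-2, S2-1, S2-2 and S2-4, and from 8.29 to 23.5 CPM with a median of 14.6 CPM in the 6 EtOH embryos. The groups did not overlap, with the lowest saline embryo just above the highest EtOH embryo. The log2 fold change was -1.38 (SE 0.30, edgeR adjusted p = 0.042), which is a fold of 0.383. Within batch 1 the means were 45.6 and 9.88 CPM in saline and EtOH, and within batch 2 they were 38.2 and 18.4 CPM. Thinned nuclei of Cluster 3 with an Nkx2-1 UMI made up 6.78 ± 3.15% in saline and 3.00 ± 1.56% in EtOH embryos, and such nuclei held 1.27 ± 0.15 and 1.09 ± 0.15 UMIs each. By this share the groups did overlap, with the EtOH embryo E2-4 at 5.98%, above the saline embryos S2-2 (3.05%) and S2-4 (4.62%). The interneuron markers in Cluster 3 summed to 138 to 190 CPM in saline and 108 to 162 CPM in EtOH embryos (2 of 3 tested, both lower, 0 called), and the RGC markers to 184 to 204 CPM and 196 to 228 CPM (3 tested, 1 called higher). The Cajal-Retzius markers Reln, Trp73 and Lhx5 summed to 34.4 to 129 CPM and 24.01 to 60.2 CPM (1 tested, lower, 0 called), and the part of these markers was not tested. Nuclei of Cluster 3 had median UMIs of 5253 to 7645 in saline and 3142 to 5601 in EtOH embryos, and the part of depth was not tested further than by thinning. The call was lost with nuclei thinned to 2000 UMIs (log2 fold change -1.41, edgeR adjusted p = 0.088) and without the filter on low counts (-1.44, adjusted p = 0.056). With batch as a term, that is, with the replicate block, it was lost too (log2 fold change -1.39, edgeR adjusted p = 0.069). Leaving out 1 embryo at a time, it was kept without S2-2 or S2-4 only (log2 fold changes from -1.53 to -1.17). The call was kept by DESeq2 (-1.42, adjusted p = 0.0012) and by edgeR on counts summed per dam (-1.55, adjusted p = 0.0030). It was also kept by limma voom blocked on dam (-1.36, adjusted p = 0.026). Of all alternatives, those that leave out 1 embryo included, 7 kept the call and 12 lost it.

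**Figure D3:**
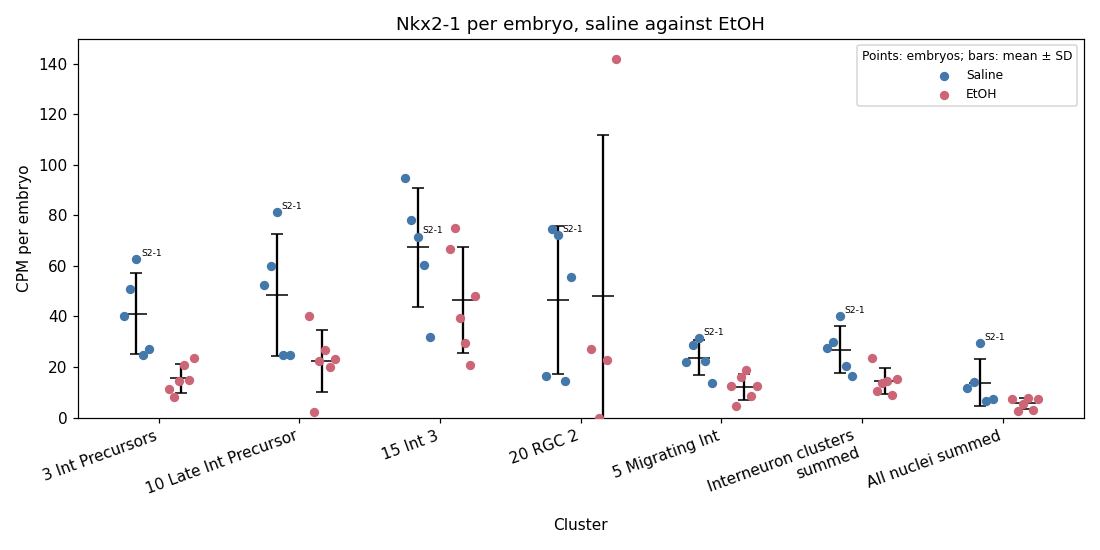
Nkx2-1 in CPM per embryo (points, blue saline, red EtOH; S2-1 is marked) in Clusters 3, 10, 15, 20 and 5, in the interneuron clusters summed and in all nuclei summed, with black bars for mean ± SD. In Cluster 3 the saline embryos lay at 24.7 to 62.6 CPM and the EtOH embryos at 8.29 to 23.5 CPM, without overlap.

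In the 7 interneuron clusters summed, Nkx2-1 was the member that passed the test, where 4.83% of all tested genes were called. Its level was 27.4, 29.7, 40.3, 20.2 and 16.5 CPM in S1-1, S1-2, S2-1, S2-2 and S2-4. The EtOH embryos ranged from 9.09 to 23.7 CPM with a median of 14.1 CPM, so that the groups overlapped. The log2 fold change was -1.01 (SE 0.27, edgeR adjusted p = 0.048). With the replicate block the adjusted p was 0.062, and without S2-1, the highest embryo, it was 0.113 with a log2 fold change of -0.81. The call was also lost with thinned nuclei (adjusted p = 0.059) and without the filter on low counts (0.077). Leaving out 1 embryo, it was kept without S2-4 or E1-1 only. Sim1, Otp and Nr5a1 were listed as markers of the hypothalamus and preoptic area. Over all nuclei Sim1 had 9435 UMIs, Otp 892 and Nr5a1 120, so their sum mostly shows Sim1. Whether nuclei with these markers also held Nkx2-1 was not examined. In the interneuron clusters summed they together stood at 128 CPM in S2-1 and at 12.8 to 43.0 CPM in the other saline embryos. In the EtOH embryos they stood at 0.344 to 90.3 CPM, with 2 of 3 tested, both lower, and 0 called. Of the non-neuronal markers (13.8 to 23.8 CPM in saline and 19.7 to 28.9 CPM in EtOH embryos) 4 were tested and 1 was called higher. The part of these markers was not tested. In single interneuron clusters Nkx2-1 was lower in 5 of 5 tested and called in 0 by edgeR, for example in Cluster 10 at 48.6 ± 24.2 CPM in saline (n = 5) and 22.5 ± 12.2 CPM in EtOH (n = 6; log2 fold change -1.20, SE 0.42, edgeR adjusted p = 0.222). Without S2-4 it was called in Clusters 10 (-1.43, edgeR adjusted p = 0.018) and 5 (-1.09, adjusted p = 0.0022), and DESeq2 called it in Cluster 5 with all embryos (-0.99, adjusted p = 0.022). In Cluster 20 (RGC 2), where Nkx2-1 was second highest, it was not called by edgeR. There it ranged from 14.6 to 74.5 CPM in saline (n = 5) and from 0 to 142 CPM in EtOH embryos (n = 4). The highest embryo of Cluster 20 was E2-4, from the EtOH group.

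In all nuclei summed 12.1% of all tested genes were called, and of the members Nkx2-1 and Sox6. Nkx2-1 stood at 11.6, 14.2, 29.6, 6.52 and 7.33 CPM in S1-1, S1-2, S2-1, S2-2 and S2-4, and from 2.57 to 7.81 CPM (median 6.32) in the EtOH embryos, with S2-1 far above the rest and S2-2 and S2-4 among the EtOH values. The log2 fold change was -1.38 (SE 0.43, edgeR adjusted p = 0.042). Without S2-1 it was -0.91 (adjusted p = 0.107), with the replicate block the adjusted p was 0.051, with thinned nuclei 0.054, without the filter on low counts 0.065 and by limma voom 0.112, and leaving out 1 embryo the call was kept without S2-2 or S2-4 only. S2-1 also had the highest share of nuclei in Clusters 3, 10, 15 and 20, 28.6% against means of 17.96 ± 6.76% over the saline embryos, S2-1 included, and 13.6 ± 3.59% over the EtOH embryos. The summed level of Sim1, Otp and Nr5a1 was 76.5 CPM in S2-1, 6.7 to 22.6 CPM in the other saline embryos and 0.6 to 38.6 CPM in the EtOH embryos. Of these 3 markers 2 could be tested and 0 were called. Their part in the result was not tested.

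Sox6 fell in 3 PN clusters, where its level was low, and did not pass the edgeR test with the filter on low counts in the RGCs and migrating interneurons in which it was highest. In Cluster 1 (Callosal PN) it stood at 251, 188, 274, 266 and 140 CPM in S1-1, S1-2, S2-1, S2-2 and S2-4, and from 67.3 to 131 CPM with a median of 86.2 CPM in the EtOH embryos. The groups did not overlap, and S2-4 was the saline embryo nearest to the EtOH values. The log2 fold change was -1.34 (SE 0.21, edgeR adjusted p = 0.024), a fold of 0.394. In Cluster 4 (Rostral Subcortical PN) the saline values were 222, 200.5, 273, 228 and 137 CPM in the same order and the EtOH values 91.6 to 145 CPM (median 104; log2 fold change -0.92, SE 0.18, adjusted p = 0.0495). In Cluster 9 (Early PN) they were 482, 482, 483, 559 and 374 CPM against 265 to 385 CPM (median 303; log2 fold change -0.63, SE 0.10, adjusted p = 0.011). In Clusters 4 and 9 S2-4 lay among the EtOH embryos.

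All 8 PN clusters had lower means after EtOH, with log2 fold changes from -2.48 to -0.21. Cluster 16 (Caudal Subcortical PN) went from 240 ± 55.9 CPM (n = 5) to 59.96 ± 33.8 CPM (n = 6) without overlap (edgeR adjusted p = 0.052), and Cluster 8 from 248 ± 75.4 to 110.3 ± 46.3 CPM (adjusted p = 0.076). DESeq2, limma voom and edgeR without S2-4 called Sox6 lower in both, and edgeR without the filter, on counts summed per dam or without E2-4 called it in Cluster 16. In contrast, the 5 RGC clusters had log2 fold changes between -0.07 and 0.06. In Cluster 2 the level was 2930 ± 214 CPM in saline and 2899 ± 169 CPM in EtOH embryos (log2 fold change -0.07, SE 0.07, adjusted p = 0.589). In Cluster 5 it was 3697 ± 332 CPM and 3312 ± 289 CPM (log2 fold change -0.21, SE 0.08, adjusted p = 0.131). In Cluster 10 the edgeR adjusted p was 0.122 (log2 fold change -0.36), and Sox6 was called lower there by DESeq2 (adjusted p = 0.032), without S2-4 (0.011) and without the filter on low counts, the last also in Cluster 23 (-0.50, adjusted p = 0.011). Whether the PN and RGC changes differ was not tested as such. In Clusters 1, 4 and 9 the Sox6 calls rest on few molecules per nucleus. The median nucleus of Cluster 1 held 0 to 2 Sox6 UMIs in the saline and 0 in the EtOH embryos, and among thinned nuclei 33.8 ± 8.95% against 9.37 ± 2.02% had a UMI. Nuclei with a UMI held 1.40 ± 0.03 and 1.48 ± 0.16 each. The median nucleus of Cluster 9 held 1 to 3 Sox6 UMIs in the saline and 0 to 1 in the EtOH embryos. There 52.4 ± 6.22% against 33.3 ± 3.88% of thinned nuclei had a UMI.

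**Figure D4:**
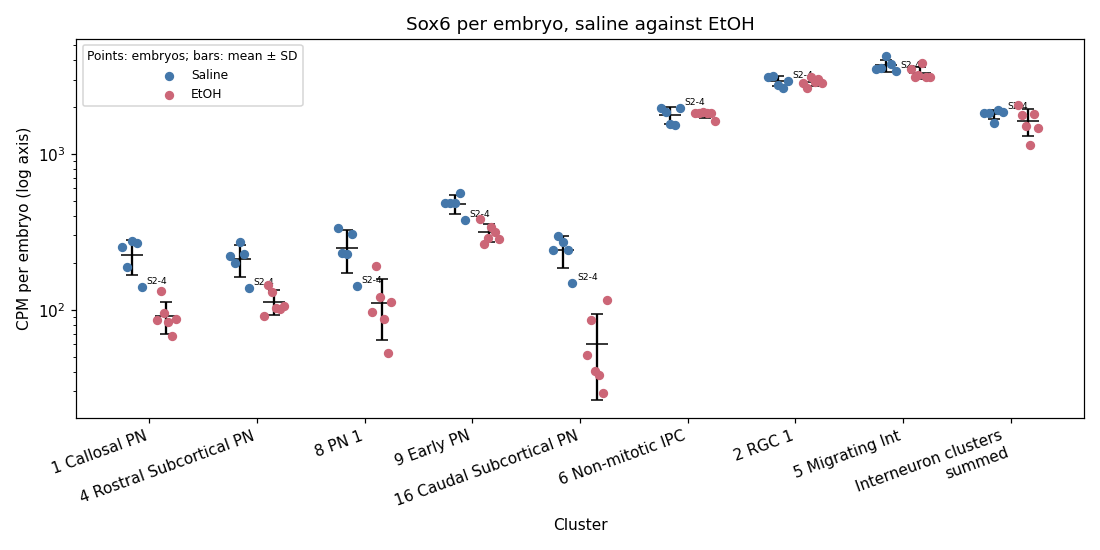
Sox6 in CPM per embryo (points, blue saline, red EtOH; S2-4 is marked) on a log axis in 5 PN clusters (1, 4, 8, 9 and 16), Clusters 6, 2 and 5 and the interneuron clusters summed, with black bars for mean ± SD. EtOH embryos lie lower in the 5 PN clusters, without overlap in Clusters 1 and 16, and S2-4 is the lowest saline embryo there, while the groups mix in Clusters 6 and 2.

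Other genes moved with Sox6 in these PN clusters, among them markers of other cell types and of PN. Erbb4, a receptor of interneurons picked here after its values were seen, stood at 525, 365, 538, 292 and 159 CPM in Cluster 1 of S1-1, S1-2, S2-1, S2-2 and S2-4 and at 60.1 to 169 CPM in the EtOH embryos (log2 fold change -1.82, SE 0.38, edgeR adjusted p = 0.040). Its level in Cluster 5 was 21578 to 25749 CPM in saline and 20490 to 25221 CPM in EtOH embryos. Erbb4 thus also had S2-4 as its lowest saline embryo in Cluster 1. It was called in Cluster 9 as well (log2 fold change -2.04, edgeR adjusted p = 0.038) and not in Cluster 4 (-1.23, adjusted p = 0.152). The sum of Gad1, Gad2 and Slc32a1 in Cluster 1 was 29.2 to 103 CPM in saline and 21.7 to 48.0 CPM in EtOH embryos, with 2 of the 3 tested, both lower, and 0 called. The sum of Hes1, Hes5 and Sox2, the RGC markers, was 8.46 to 12.9 CPM against 4.34 to 12.4 CPM, with 1 of 3 tested and 0 called. In Clusters 4 and 9 edgeR likewise called 0 genes of the interneuron and RGC lists. Of the striatal list (Rarb, Ebf1 and Foxp1; 430 to 550 CPM in saline and 359 to 454 CPM in EtOH embryos in Cluster 1), 2 of 3 were called lower in Cluster 1, 0 in Cluster 4 and 1 in Cluster 9. Of the IPC list (Eomes and Neurog2; 16.9 to 35.9 CPM against 11.2 to 22.7 CPM in Cluster 1) 1 of 2 was called lower in Cluster 1 and 0 in Clusters 4 and 9, and of the Cajal-Retzius list (Reln, Trp73 and Lhx5; 227 to 409 CPM against 140 to 202 CPM in Cluster 9) 1 of 1 tested was called lower in Cluster 9 and 0 in Clusters 1 and 4. The PN markers themselves (Neurod2, Neurod6 and Tbr1; 441 to 635 CPM against 405 to 502 CPM in Cluster 1) had 1 of 3 called lower in each of Clusters 1, 4 and 9. Of the thalamic list (Ntng1, Lhx9 and Gbx2; 30.6 to 98.7 CPM against 32.6 to 63.2 CPM in Cluster 1) 2 were tested in each of these clusters, both with lower means, and 0 called. Of the 5 non-neuronal markers (6.47 to 16.2 CPM against 7.96 to 13.7 CPM in Cluster 1) 1 was called, in Cluster 4 and higher. Median UMIs per nucleus of Cluster 1 were 6137 to 8665 in saline and 3988 to 6463 in EtOH embryos. Free RNA can give UMIs in nuclei that do not express a gene, and empty droplets were not analysed here, so Sox6 UMIs in PN nuclei cannot be told apart from free RNA. The part of free RNA, of these genes and of depth in the Sox6 result was not tested.

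The Sox6 call in Cluster 9 was kept under each of the 19 alternatives, those that leave out 1 embryo included. The call in Cluster 1 was kept with the replicate block (log2 fold change -1.33, edgeR adjusted p = 0.032), and that in Cluster 4 was not (-0.91, adjusted p = 0.065), nor was the latter with thinned nuclei (-1.14, adjusted p = 0.077) or counts summed per dam (-0.85, adjusted p = 0.082). Leaving out 1 embryo, the call in Cluster 1 was kept without S1-2, S2-4, E1-1 or E1-2 (adjusted p up to 0.068 without S1-1) and the call in Cluster 4 without S2-4 only. Without S2-4 the log2 fold changes were -1.48, -1.05 and -0.72 in Clusters 1, 4 and 9, and the number of member calls over the clusters rose from 4 to 13. The share of all tests called without S2-4 is not given here, so this rise has no background. In all nuclei summed Sox6 was 1261 to 1353 CPM in saline and 995 to 1204 CPM in EtOH embryos, without overlap (log2 fold change -0.37, SE 0.07, edgeR adjusted p = 0.014). The call was lost with nuclei thinned to 2000 UMIs, where the fold missed its threshold (-0.30, adjusted p = 0.017), and with counts summed per dam (-0.40, adjusted p = 0.167). RGC clusters made up 25.7 ± 3.97% of saline and 20.7 ± 2.48% of EtOH nuclei, and PN clusters 28.9 ± 6.23% and 36.6 ± 5.21%, and their part was not tested. In the interneuron clusters summed, Sox6 was 1800 ± 121 CPM and 1629 ± 320 CPM (log2 fold change -0.21, adjusted p = 0.279).

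Maf was called in 0 clusters by edgeR with the filter on low counts, with its lowest adjusted p-values in progenitors and PN. DESeq2 called it lower in Cluster 1, limma voom in Cluster 6, edgeR without S2-4 in Clusters 1, 3 and 6, and edgeR without the filter in Clusters 1, 3, 6, 9 and 21. In Cluster 6 it went from 7.08 ± 0.94 CPM (n = 5) to 2.07 ± 1.23 CPM (n = 6), without overlap (log2 fold change -1.69, SE 0.35, edgeR adjusted p = 0.060). The part of free RNA at such low levels of Maf was not tested. In the cortical hem RGCs of Cluster 21 it was 94.1 to 207 CPM in saline and 46.7 to 88.2 CPM in EtOH embryos, without overlap (log2 fold change -0.86, adjusted p = 0.121). In Cluster 5, where Maf was highest, the difference had the other sign, from 251 ± 24.97 to 303 ± 24.1 CPM (log2 fold change 0.22, SE 0.08, adjusted p = 0.132). In the interneuron clusters summed the log2 fold change was 0.30 (SE 0.22, adjusted p = 0.392).

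Lhx6 and Lhx8 were called in 0 clusters and 0 sums by edgeR with its filter on low counts. Without the filter, Lhx6 was called lower in Clusters 1, 4, 6, 8 and 16 and Lhx8 in Clusters 1 and 23. Mean levels of Lhx6 in these clusters were only 2.75 to 5.93 CPM, against 285 CPM in Cluster 5. Those of Lhx8 were 1.51 CPM in Cluster 1 and 12.7 CPM in Cluster 23. The part of free RNA in these calls was not tested. In all nuclei summed, Lhx6 was called without S2-2 (log2 fold change -0.54, edgeR adjusted p = 0.027) and Lhx8 with counts summed per dam (-0.57, adjusted p = 0.045). Lhx6 in the interneuron clusters summed was 130 ± 15.9 CPM in saline (n = 5) and 124 ± 23.5 CPM in EtOH embryos (n = 6; log2 fold change -0.15, SE 0.14, edgeR adjusted p = 0.495), and Lhx8 was 51.5 ± 12.9 and 44.99 ± 16.1 CPM (-0.31, SE 0.22, adjusted p = 0.399). Their log2 fold changes in single clusters were from -0.87 to -0.00086 and from -0.69 to 0.42. Without S2-1, the saline embryo with the highest Lhx8, the value of Lhx8 was -0.15 (adjusted p = 0.710), and without E1-1 it was -0.49 (adjusted p = 0.080). Whether the change of Nkx2-1 differs from that of Lhx6 or Lhx8 was not tested.

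Of the caudal factors, 0 passed the edgeR test with the filter on low counts in a cluster or a sum. Nr2f1 in the interneuron clusters summed was 175 ± 30.2 CPM in saline (n = 5) and 159 ± 37.1 CPM in EtOH embryos (n = 6; log2 fold change -0.19, SE 0.15, edgeR adjusted p = 0.455). Prox1 was 64.0 ± 18.3 and 58.1 ± 15.99 CPM (-0.19, SE 0.23, adjusted p = 0.635), and Sp8 9.40 ± 2.02 and 11.3 ± 2.7 CPM (0.22, SE 0.16, adjusted p = 0.366). The log2 fold changes of Prox1 in single clusters ran from -1.71 to 1.03. The lowest was in Cluster 1, from 8.69 ± 8.06 CPM (n = 5) to 2.28 ± 1.57 CPM (n = 6; edgeR adjusted p = 0.131), which DESeq2 (-1.89, adjusted p = 0.020) and edgeR on counts summed per dam (-1.62, adjusted p = 0.038) called lower. The part of free RNA at this low level was not tested. The highest was in the RGCs of Cluster 20, from 57.5 ± 15.8 CPM (n = 5) to 120.1 ± 39.0 CPM (n = 4), which missed the threshold (log2 fold change 1.03, SE 0.26, edgeR adjusted p = 0.185) and was called by limma voom with the dam as a block (0.96, adjusted p = 0.0495) and by edgeR without the filter. Sp8 in Cluster 10 was 18.5 ± 3.9 and 26.8 ± 6.1 CPM (0.54, SE 0.19, adjusted p = 0.203), and was called without S2-4 (0.64, adjusted p = 0.041). Without the filter, Nr2f2 was called lower in Clusters 1 and 19, Nr2f1 in Cluster 19 and Prox1 in Cluster 9.

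Nr2f2 in the interneuron clusters summed was 88.3, 92.3, 131, 145 and 108 CPM in S1-1, S1-2, S2-1, S2-2 and S2-4. Of the EtOH embryos, E1-1 stood at 21.7 CPM and the other 5 at 76.4 to 115 CPM. The log2 fold change was -0.43 (SE 0.31, edgeR adjusted p = 0.385) with E1-1 and -0.25 (SE 0.14, adjusted p = 0.262) without it. E1-1 was the lowest of all embryos in 15 of its 23 clusters with at least 10 nuclei. In Cluster 7 it held 1.68 CPM where the others held 125 to 259 CPM, and in Cluster 8 it held 34.3 CPM against 162 to 272 CPM. In the Layer I nuclei of Cluster 14, however, E1-1 had 318 CPM, within the 274 to 343 CPM of the others. Most other members were also lowest in E1-1 in several clusters, ties at 0 included. The number was 9 each for Nr2f1, Prox1, Maf and Lhx8, 10 for Sp8, 8 each for Nkx2-1 and Lhx6, and 2 for Sox6. For some members other EtOH embryos were lowest in more clusters than E1-1. E1-2 was lowest in 17 clusters for Nkx2-1, 13 for Lhx8 and 11 for Sp8. E2-3 was lowest in 15 each for Nkx2-1 and Lhx6 and in 14 for Lhx8. E1-1 was the highest embryo in 4 clusters for Lhx6 and in 3 for Lhx8. E1-1 also had the lowest median depth (4072 UMIs) and the lowest sum of hypothalamic and preoptic markers (0.6 CPM), and the part of these in its Nr2f2 level was not tested.

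**Figure D5:**
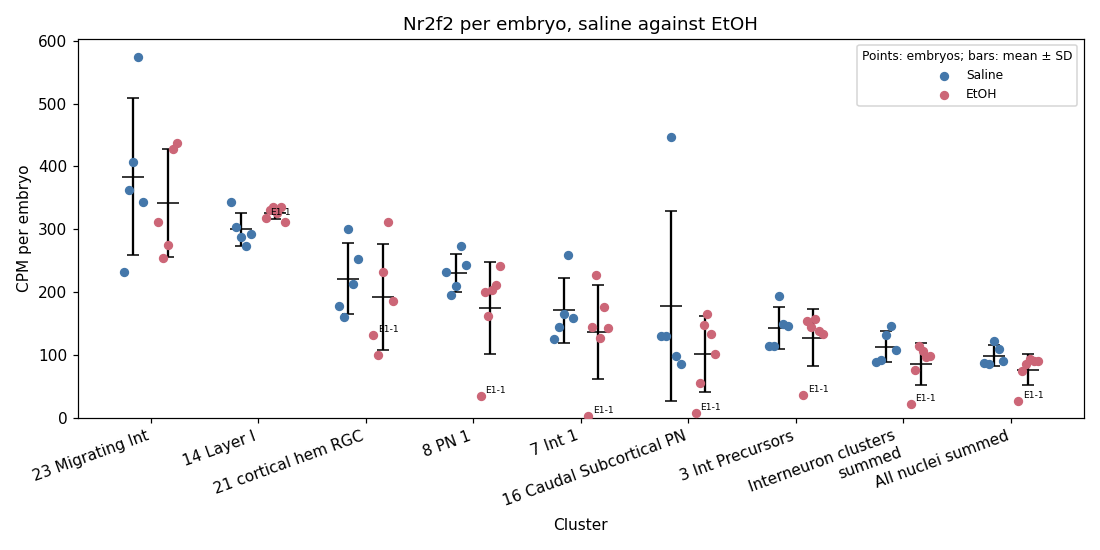
Nr2f2 in CPM per embryo (points, blue saline, red EtOH; E1-1 is marked) in 7 clusters, in the interneuron clusters summed and in all nuclei summed, with black bars for mean ± SD. E1-1 lies below the other embryos in Clusters 8, 7, 16 and 3 and among them in Cluster 14, while Cluster 23 of E1-1 had too few nuclei to be shown.

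The share of interneuron nuclei with a UMI gave a second reading of the same embryos. For Nkx2-1 it was 2.94 to 7.28% in saline and 1.83 to 3.58% in EtOH embryos after thinning, a difference of -2.41 percentage points (two-sided exact permutation p = 0.00866, adjusted 0.165, and 0.00476 with permutation within batches). For Sox6 it was 62.1 to 69.3% and 40.9 to 64.0%, a difference of -10.5 percentage points (exact permutation p = 0.0238, adjusted 0.203, and 0.00476 with permutation within batches). For both genes the value within batches was the smallest that this permutation can give. Without thinning the means were 12.4 and 6.35% for Nkx2-1 and 87.5 and 64.1% for Sox6. The other 7 members had exact permutation p-values from 0.141 to 0.996, with Lhx6 at 20.01 ± 2.25% in saline (n = 5) and 19.995 ± 4.42% in EtOH embryos (n = 6). Of the members 0 were called, as were 0 of all 10487 genes (0%), of which 1983 had an unadjusted p under 0.05. With 5 and 6 embryos the smallest p is 0.00216, and 454 genes would have had to reach it for an adjusted p under 0.05, so this test could hardly call a gene.

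Of 45 other genes of the interneuron network, 44 were in the tables and 37 could be tested in the interneuron clusters summed. Of these 2 were called, a share near the 4.83% of all tested genes in this sum, and 8 had an unadjusted p under 0.05. Their median log2 fold change was 0.03, against 0.01 over all genes. Slc32a1, the vesicular GABA transporter, rose from 16.4 ± 2.31 CPM (n = 5) to 23.3 ± 3.07 CPM (n = 6; log2 fold change 0.43, SE 0.11, edgeR adjusted p = 0.036). With counts summed per dam, with thinned nuclei, or without any 1 of S1-1, S1-2, S2-1, E1-2, E2-1, E2-2, E2-3 and E2-4, edgeR called 0 network genes, and without S2-4 it called 8. The share of all genes called under these settings is not given, so these counts have no background. Of the 22 genes listed for the medial lineage 17 were tested and 0 called by edgeR, with 2 at an unadjusted p under 0.05, and of the 11 listed for the caudal and lateral eminences 10 were tested and 0 called, likewise with 2.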

How the data were processed

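Cortical nuclei of 11 E14 embryos were profiled by snRNAseq (10x 3′ chemistry). Reads had been aligned by the authors with Cell Ranger against mm10, and they deposited, for each embryo and cluster, a table of raw UMI counts without normalization, after their filters on nuclei and genes. Clusters and names are those of the authors. Doublets were not called here, and the methods name no caller. The authors ran Cell Ranger with default parameters and did not name the strand setting separately.

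Counts were summed per embryo over each cluster, over the 7 interneuron clusters and over all nuclei, and 9 of 275 pairs of embryo and cluster with fewer than 10 nuclei were left out. Total UMIs per embryo ranged from 14078316 to 83061737, and errors are SDs over embryos. EtOH was compared with saline by edgeR 4.0.16 (TMM, filterByExpr, robust glmQLFit and glmQLFTest) in R 4.3.3, with Benjamini-Hochberg adjustment over all genes tested. The embryo was the replicate. The fit was tested on simulated data, as was the share test. Alternatives used DESeq2 1.42.0, limma 3.58.1, dams, batches, filters, thinning and left-out embryos. The labels give each embryo a batch and a code (S1, S2, E1 or E2), which was read as its dam. So read, each batch held 1 dam of each treatment, and the block was fitted as batch. Shares were compared by two-sided exact permutation tests over genes with a mean share of at least 1%. Totals of littermates differed by a chi-square of 4.33 to 89.7 per gene, above the sampling noise, so no embryo was counted as a duplicate.

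All 9 members were named in every cluster, network genes when called (1 called gene is not reported here), and the 3 genes most like each member among genes with at least 10 CPM in a cluster. Members and lists were chosen with earlier results of these data known. Positions are from GENCODE M21 on GRCm38, which matched 23125 of 23513 genes by symbol. Computing used Python 3.11.15, NumPy 2.4.6, SciPy 1.17.1, pandas 2.3.3 and matplotlib 3.10.9.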

Additional observations from a re-analysis of the deposited data

Results flagged for a closer look

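Of 54 groups of embryos tested (9 members, 2 groups, CPM in the interneuron clusters, CPM in all nuclei, and shares), 6 held an embryo far from the others by Dixon's criterion, where chance gives about 1 in 20. Lhx8 in E1-1 was 77.1 CPM in the interneuron clusters summed, above 43.2 CPM as the next EtOH embryo, and its share of thinned interneuron nuclei was 10.2% against 5.92%. Without E1-1 the log2 fold change of Lhx8 in these clusters moved from -0.31 to -0.49 (edgeR adjusted p = 0.080). Nr2f2 in E1-1 was 26.3 CPM in all nuclei, with 74.9 CPM in the next EtOH embryo. Sox6 in S2-1 was 1591 CPM in the interneuron clusters, below 1828 CPM in the next saline embryo. Prox1 in S2-1 was 60.3 CPM in all nuclei, above 37.6 CPM. Sp8 in S2-4 was 12.9 CPM in the interneuron clusters, above 9.07 CPM. Of the 6, 3 came from E1-1 and 2 from S2-1.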

How the results depend on the processing

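Over the 25 clusters, where 4 member tests were called, the count was 10 with DESeq2, 24 without a filter on low counts, 8 with limma voom and the dam as a random block, 2 with the replicate block (batch as a term) and 2 with nuclei thinned to 2000 UMIs. It was 5 with counts summed per dam, 3 with adjustment over all clusters together, and 4 with size factors of DESeq2 or at least 30 nuclei. Without 1 embryo it lay between 1 and 13, the 13 without S2-4. The share of all tests called under these other settings is not given, so the counts cannot be set against it. In the interneuron clusters summed, the 1 call was lost (0 calls) without a filter, with the replicate block and with thinning, and was 0 to 1 without 1 embryo. In all nuclei summed, the 2 calls became 1 without a filter, with the replicate block or with limma voom, and 0 with thinning, and were 1 to 3 without 1 embryo. Shares gave 0 calls in every setting except without thinning, where 2 members were called, and without thinning the depths of the groups differ. Network genes went from 2 calls to 0 with counts summed per dam or with thinning, and to between 0 and 8 without 1 embryo. Signs turned for Maf in all nuclei without S1-1 (log2 fold change 0.035, range -0.131 to 0.035 without 1 embryo) and for Sp8 in all nuclei with thinning (0.014), neither of which was called. The causes were not tested, except that thinning leaves fewer counts and per-dam sums fewer samples. The cluster with the highest level was the same for 9 of 9 members with counts pooled over embryos and for 7 of 9 by share, and without thinning 70 of 72 co-detection shares moved by more than 1 SD over embryos, while the direction between nuclei with and without the given gene was kept in 66 of 72 pairs and turned in 6 (Lhx6 with Nr2f1 and Nr2f2 with Sox6, either way round, Nr2f1 given Maf, and Sp8 given Sox6). Low counts limit Sp8, Nkx2-1 and Lhx8 most, since they passed the filter in 5 to 7 clusters.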
